A study of Oncorhynchus mykiss with 14 samples.

Results

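The miR-22 forms of rainbow trout adipocyte fractions are described here, chosen by name with earlier results of these data known. The rule took every entry of the deposited miRNA table whose ID begins with ssa-miR-22 followed by a letter or a hyphen, so that miR-221 to miR-223 stay out. It gave 2 of 899 entries, ssa-miR-22a-3p (22 nt) and ssa-miR-22b-5p (21 nt), both named after Atlantic salmon (prefix ssa). By their names they are different arms of different precursors: the 3p strand of miR-22a and the 5p strand of miR-22b. Neither miR-22 entry carried the same reads as any other entry. Arm names did not always mark separate measurements, since miR-27d-5p and miR-27d-3p carried the same reads, as did miR-30c-5p and miR-30c-3p. Whether the reads of miR-22b-5p came from the 5p strand was not tested.

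Mature adipocytes were released with collagenase from 3 fat depots of adult Oncorhynchus mykiss, all untreated, on one commercial diet and fasted before sampling. Visceral fat (VAT) gave 4 libraries, numbered 1, 3, 4 and 5, subcutaneous fat (SAT) gave 5 and intramuscular fat (IMAT) gave 5. The labels do not say that the libraries of a depot came from separate fish, so p-values measure the spread between these libraries, which may be technical. The groups are crude fractions of dissected depots, with no sort or gate named.

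miR-22 is a vertebrate miRNA that is kept almost unchanged between fish and mammals. In mammals the 3p strand is the main product, it is abundant in heart, skeletal muscle and fat, and mice without it put on less fat on a rich diet. A miRNA precursor is cut into a 5p and a 3p strand, of which one is usually loaded into the silencing complex and the other is mostly lost. The 5p entry, if its name holds, is thus the strand that is the minor product in mammals. What either strand does in trout fat cells is not given in the sources used here.

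Library totals ran from 759369 (IMAT 4) to 11843805 counts (IMAT 5). The muscle miRNAs miR-1, miR-133, miR-206 and miR-499 (9 entries, 6 after entries with the same reads were joined) took 0.0888 to 4.65% of the counts in VAT, 3.37 to 11.9% in SAT and 65.5 to 89.6% in IMAT. In these shares entries with the same reads are each counted, which raises the muscle share in IMAT. Joining such entries took the share of miR-22a-3p in IMAT 5 from 1.83 to 3.14%. A joined muscle share was not computed. A list of miRNAs described as enriched in fat cells (15 entries) took 1.97 to 8.36% in VAT, 2.19 to 5.19% in SAT and 0.363 to 1.37% in IMAT, which was 3.25 to 3.97% of the IMAT counts other than muscle miRNAs. The endothelial miR-126 took 1.23 to 4.37%, 5.21 to 8.24% and 0.506 to 1.40% in the same order. A list for stroma and smooth muscle (7 entries) took 2.415 to 6.42%, 7.60 to 10.9% and 1.03 to 2.50%. Of the IMAT counts other than muscle miRNAs, miR-126 took 1.87 to 7.97% and the stromal list 6.41 to 12.15%. The stromal list was thus above the fat cell list in SAT and in the IMAT counts without muscle miRNAs. Entries for red blood cells took at most 0.00385% of any library, but these were miR-144 entries alone. The red cell miRNA miR-451 had no entry, so the share of blood cannot be read from them. Muscle entries, with those of the same reads each counted, hold most of the summed counts of an IMAT library. Each miR-22 value is therefore given as a share of all counts and of the counts left without the 9 muscle entries. Taking out these entries leaves in any other miRNA of muscle cells, and any miR-22 that muscle cells made. In the comparisons with IMAT, muscle cells in the fraction and the level in fat cells cannot be told apart. In such bulk samples, fewer cells of a type and less RNA per cell cannot be told apart.

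miR-22a-3p was one of the leading miRNAs of these trout adipocyte fractions when muscle miRNAs were set aside. Which cells of a fraction it came from was not tested. By the mean of the depot means it was the fifth most abundant named miRNA, at 5.83% of counts, after miR-146a-5p, miR-1-3p (9.06%), miR-100a-5p (8.15%) and miR-21b-5p (7.71%). With entries of the same reads joined, it ranked 2 to 4 among all entries in the VAT libraries, 2 to 3 in SAT and 7 to 9 in IMAT. With muscle miRNAs also taken out, it ranked 5 to 6 in IMAT.

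In VAT, miR-22a-3p took 7.997% of the counts in VAT 1, 6.81% in VAT 3, 10.3% in VAT 4 and 3.24% in VAT 5. In SAT it took 7.67, 8.67, 9.37, 10.9 and 9.86% in libraries 1 to 5. In IMAT it took 1.01, 0.526, 1.07, 1.16 and 1.83%. Every IMAT library was therefore below every VAT and SAT library, while VAT ran from below the SAT range, with VAT 5 and VAT 3, up into it with VAT 1 and VAT 4. Counting error was small beside this spread: in IMAT 4, with 8825 reads, the exact Clopper-Pearson 95% interval was 1.14 to 1.19%, and in VAT 5 it was 3.23 to 3.25%. Amplified reads are not independent molecules, so these intervals hold the error of counting alone. Over all 327 entries tested, 27.5% were lower in IMAT than in VAT with no overlap, and 42.5% lower than in SAT.

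The means were 7.08 ± 2.94% in VAT (SD, n = 4), 9.29 ± 1.21% in SAT (n = 5) and 1.12 ± 0.469% in IMAT (n = 5). The spread between libraries differed as well. The highest SAT library was 1.42 times the lowest, against 3.17 times in VAT and 3.49 times in IMAT. The IMAT library with the lowest miR-22a-3p share, IMAT 2, had the highest muscle share (89.6%), and the one with the highest, IMAT 5, had the lowest muscle share (65.5%).

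With the muscle miRNAs taken out, the IMAT libraries drew together and moved up. miR-22a-3p then took 6.15, 5.06, 6.97, 5.65 and 5.32% of the remaining counts in IMAT 1 to 5, a mean of 5.83 ± 0.758% (n = 5), with the highest library 1.38 times the lowest. SAT held 8.38, 9.48, 10.6, 11.3 and 10.4% (10.04 ± 1.13%, n = 5), still above every IMAT library. Of 318 entries, 4.09% were lower in IMAT than in SAT with no overlap on this scale. VAT held 8.02, 7.15, 10.3 and 3.24% (7.17 ± 2.94%, n = 4), so 3 of its libraries lay above all of IMAT and VAT 5 lay below all of IMAT.

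**Figure D1:**
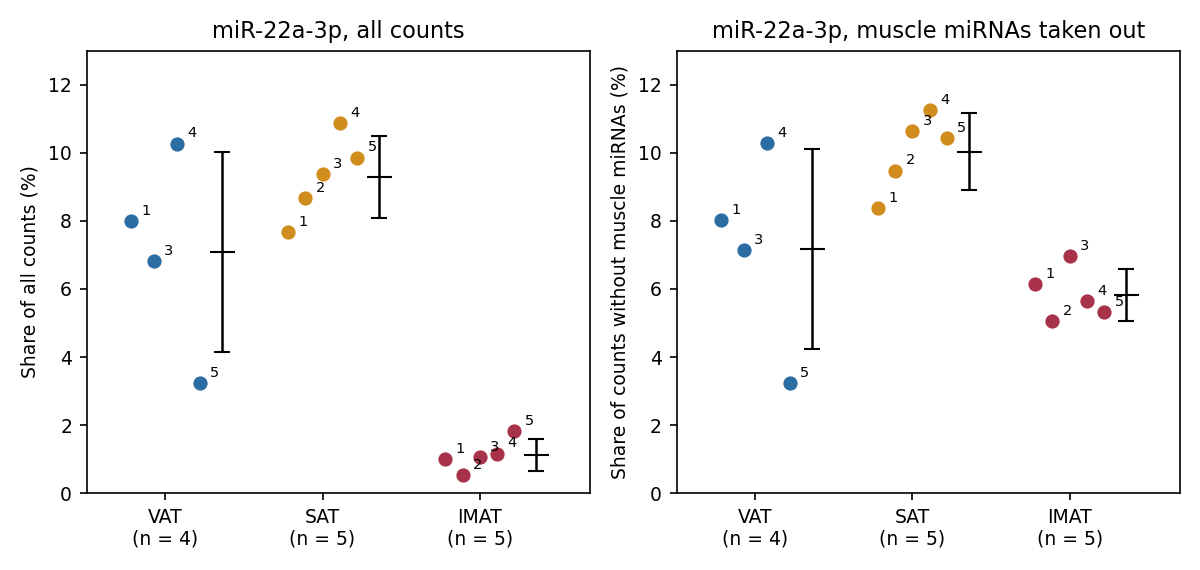
Share of miR-22a-3p in each library, in percent of all counts (left) and of the counts left without muscle miRNAs (right), by depot. Points are libraries with their replicate number, the black mark is the mean with its SD; IMAT lies at 0.526 to 1.83% on the left and at 5.06 to 6.97% on the right, below all SAT libraries in both.

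miR-22b-5p was scarce, with 33 reads (IMAT 4) to 1073 reads (VAT 4) in a library. In VAT it held 26.1 CPM (counts scaled to a fixed library total) in VAT 1, 37.3 in VAT 3, 161 in VAT 4 and 26.4 in VAT 5. In SAT it held 101, 63.5, 63.8, 58.4 and 62.4 CPM in libraries 1 to 5. In IMAT it held 29.6, 26.9, 19.9, 43.5 and 35.0 CPM. VAT 4 stood far above the other VAT libraries and above every library of the other depots, and SAT 1 stood above the rest of SAT. All IMAT libraries were below all SAT libraries on this scale, which held for 42.5% of 327 entries. At 33 reads the exact 95% interval of IMAT 4 was 29.9 to 61.0 CPM, which reaches past the SAT 4 value.

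With CPM taken over the counts without muscle miRNAs, IMAT moved from the lowest depot mean to the highest. The mean of SAT was above that of VAT on both scales. miR-22b-5p then held 180, 258, 130, 211 and 102 CPM in IMAT 1 to 5 (176 ± 62.6, n = 5), against 110, 69.4, 72.4, 60.4 and 66.1 in SAT (75.7 ± 19.8, n = 5). VAT held 26.1, 39.2, 161 and 26.4 (63.2 ± 65.6, n = 4). All but IMAT 5 lay above SAT 1, the highest SAT library, and VAT 4 lay within the IMAT range.

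**Figure D2:**
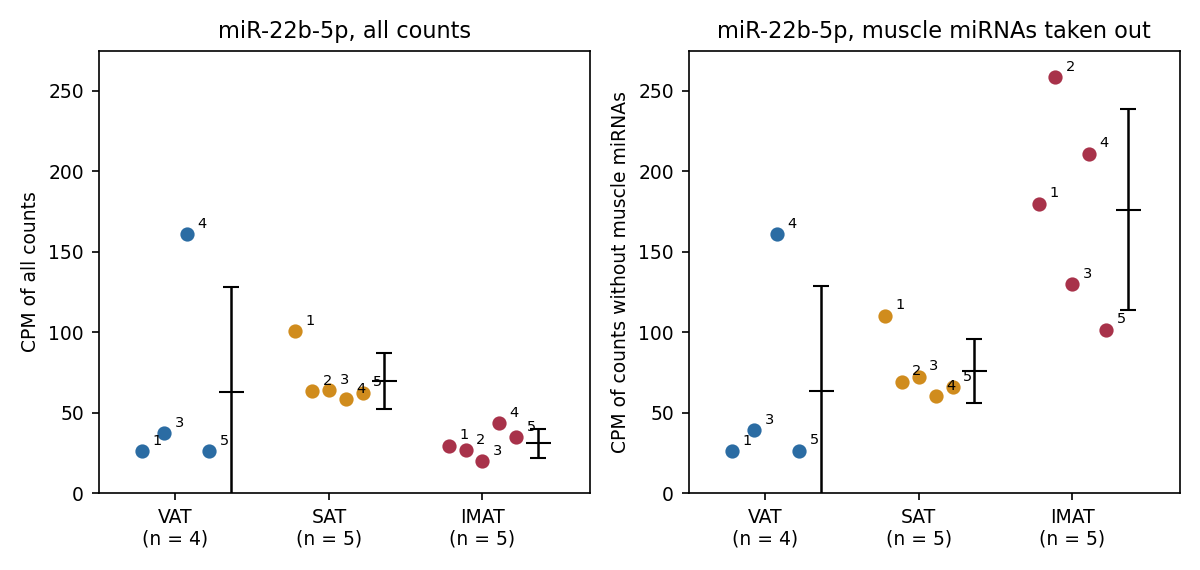
miR-22b-5p in each library, in CPM over all counts (left) and over the counts left without muscle miRNAs (right), by depot. Points are libraries with their replicate number, the black mark is the mean with its SD (the lower SD bar of VAT ends at the axis); IMAT spans 19.9 to 43.5 CPM on the left and 102 to 258 CPM on the right, and VAT 4 stands at 161 in both.

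The ratio of the forms within a library does not depend on how the library is scaled. Per 1000 counts of miR-22a-3p there were 0.326, 0.548, 1.57 and 0.815 counts of miR-22b-5p in VAT 1, 3, 4 and 5. SAT libraries 1 to 5 held 1.32, 0.732, 0.681, 0.537 and 0.633. IMAT libraries 1 to 5 held 2.93, 5.11, 1.86, 3.74 and 1.91. All IMAT libraries were above all others, and VAT and SAT overlapped.

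The ratio was 3.91-fold higher in IMAT than in SAT (log2 difference 1.97 ± 0.36, SE; two-sided exact permutation test over 5 and 5 libraries, p = 0.0079, adjusted p = 0.024 over the 3 comparisons). It was 4.19-fold higher in IMAT than in VAT (2.07 ± 0.55; exact p = 0.016, adjusted p = 0.024). These are the smallest exact p-values that the designs can give. Between SAT and VAT the log2 difference was 0.10 ± 0.53 (exact p = 0.9). Other miRNAs also stood higher against miR-22a-3p in IMAT: of the named entries above 0 in every library, muscle miRNAs left out and miR-22b-5p counted, 37.3% had a ratio to it that was higher in IMAT than in SAT with no overlap, and 23.2% did so against VAT. The ratio to miR-22b-5p was lower in IMAT without overlap for 20.4% of such entries against SAT and for 9.86% against VAT. The muscle share was also higher in every IMAT library than in all others. Within IMAT it was 83.6, 89.6, 84.7, 79.4 and 65.5% in libraries 1 to 5, where the ratio was 2.93, 5.11, 1.86, 3.74 and 1.91. In these muscle shares entries with the same reads are each counted. The part of muscle RNA in the ratio was not tested.

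**Figure D3:**
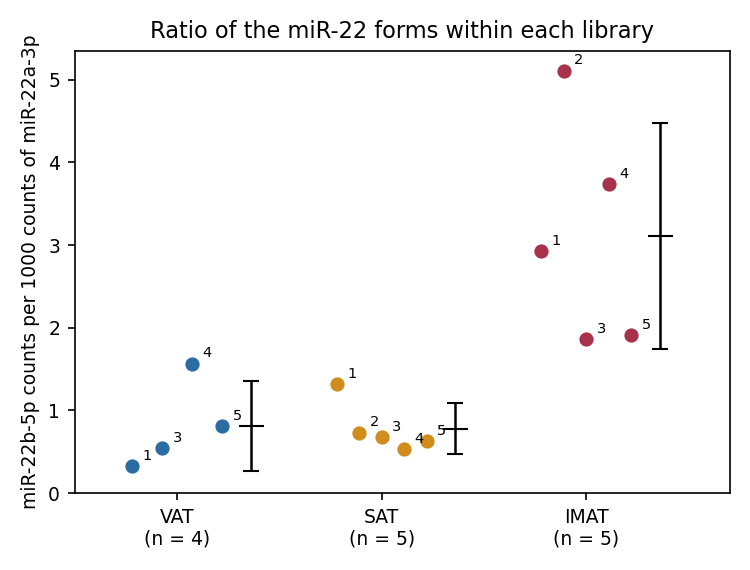
Counts of miR-22b-5p per 1000 counts of miR-22a-3p in each library, by depot. Points are libraries with their replicate number, the black mark is the mean with its SD; the 5 IMAT libraries lie at 1.86 to 5.11 and the 9 others at 0.326 to 1.57.

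The IMAT and SAT libraries set fat within muscle against fat under the skin. miR-22a-3p was lower in IMAT, at a TMM-scaled level of 20271 ± 4925 CPM (n = 5) against 67875 ± 14171 CPM in SAT (n = 5). TMM is a scaling of libraries that sets aside the entries with extreme differences. The log2 fold change was -1.74 ± 0.37 (SE, 95% interval -2.54 to -0.95; edgeR quasi-likelihood, Benjamini-Hochberg adjusted p = 0.0095), a level 3.35-fold lower. In this comparison 22 of 327 entries passed (6.73%), 10 of them lower in IMAT (3.06%). Of the named entries above 0 in every library, muscle miRNAs left out, 4.2% had a lower log2 fold change. All entries had a median log2 fold change of -0.43, and miR-22a-3p was 1.32 below it. Without IMAT 2 or IMAT 4 the adjusted p was 0.058 and 0.073 (-1.24 and -1.23).

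The share tests gave the same direction for miR-22a-3p. Its share of all counts was 8.88-fold lower in IMAT than in SAT (log2 difference -3.15 ± 0.30; exact permutation test, p = 0.0079, adjusted p = 0.024). On this scale 42.5% of 327 entries were lower in IMAT with no overlap. Several muscle entries hold the same reads, and with such entries joined the share was 4.82-fold lower (-2.27 ± 0.24; exact permutation p = 0.0079, adjusted p = 0.024). Without muscle miRNAs its share was 1.72-fold lower (-0.79 ± 0.11; exact p = 0.0079, adjusted p = 0.024), and 4.09% of 318 entries were then lower with no overlap.

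miR-22b-5p did not pass between IMAT and SAT, at TMM-scaled levels of 59.4 ± 19.6 and 50.1 ± 9.90 CPM (n = 5 each; log2 fold change 0.25 ± 0.50, 95% interval -0.83 to 1.32, edgeR adjusted p = 0.8). Its direction followed the denominator. On the scale of all counts 42.5% of 327 entries were lower in IMAT with no overlap. As a share of all counts miR-22b-5p was 2.28-fold lower in IMAT (-1.19 ± 0.24; exact permutation p = 0.0079, adjusted p = 0.024). With entries of the same reads joined this call was lost (-0.31 ± 0.21; exact permutation p = 0.24, adjusted p = 0.5). Without muscle miRNAs it was 2.26-fold higher (1.17 ± 0.28; exact permutation p = 0.016, adjusted p = 0.048). Relative to the median of all entries in each fit, miR-22b-5p stood 0.67 higher with TMM and 0.63 higher with library totals on the log2 scale.

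Fat within muscle was next set against fat around the viscera. miR-22a-3p was lower in IMAT, 20271 ± 4925 against 49329 ± 25120 TMM-scaled CPM (n = 5 and 4), and the log2 fold change was -1.28 ± 0.38 (95% interval -2.10 to -0.46; adjusted p = 0.039 in edgeR). The level was 2.43-fold lower, and VAT 5 lay within the IMAT range. In this comparison 44 of 327 entries passed (13.5%), 19 of them lower in IMAT (5.81%). Of the same named entries 21% had a lower log2 fold change, and the value was 0.69 below the median of all entries (-0.60). The call was lost without VAT 1 or VAT 4, without IMAT 1, 2, 3 or 4, and without SAT 2, 4 or 5, at adjusted p of 0.053 to 0.11.

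The share of miR-22a-3p in all counts was 6.28-fold lower in IMAT than in VAT (log2 difference -2.65 ± 0.46; exact permutation test, p = 0.016, adjusted p = 0.024), where 27.5% of 327 entries were lower with no overlap. With entries of the same reads joined it was 3.30-fold lower (-1.72 ± 0.44; exact permutation p = 0.016, adjusted p = 0.024). Without muscle miRNAs it was 1.14-fold lower and did not pass (-0.19 ± 0.37; exact permutation p = 0.6). The edgeR fit with muscle miRNAs left out and TMM on the rest gave -1.15 (adjusted p = 0.040). In edgeR with library totals it was -2.66.

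miR-22b-5p did not pass between IMAT and VAT, at 59.4 ± 19.6 and 41.5 ± 42.6 TMM-scaled CPM (n = 5 and 4; log2 fold change 0.52 ± 0.53, 95% interval -0.63 to 1.67, edgeR adjusted p = 0.52). The value depended on VAT 4, which held 105 TMM-scaled CPM against 17.3 to 24.0 in the other VAT libraries, and on the scaling. Without VAT 4 the TMM-scaled level was higher in IMAT (log2 fold change 1.69, adjusted p = 0.0026 in edgeR). The share of all counts without VAT 4 differed by 0.02 (exact permutation p = 0.93). With all VAT libraries, the share without muscle miRNAs differed by 1.87 (exact permutation p = 0.048, adjusted p = 0.071). With library totals as the only scaling the sign turned (-1.02, edgeR adjusted p = 0.14).

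The SAT and VAT libraries set fat under the skin against fat around the viscera, with muscle shares of 3.37 to 11.9% and 0.0888 to 4.65%. Neither form passed. miR-22a-3p differed by 0.46 ± 0.38 on the log2 scale (95% interval -0.36 to 1.29; adjusted p = 0.58 in edgeR), with 67875 ± 14171 TMM-scaled CPM in SAT (n = 5) and 49329 ± 25120 in VAT (n = 4). Its share of all counts differed by 0.50 ± 0.37 on the log2 scale (exact permutation p = 0.17). miR-22b-5p differed by 0.27 ± 0.53 (95% interval -0.87 to 1.41; adjusted p = 0.87 in edgeR). Here too the value rested on VAT 4, without which it was 0.99 (adjusted p = 0.057 in edgeR). These intervals leave room for a level of either form more than 2-fold higher in SAT. In this comparison 41 of 327 entries passed (12.5%). The 3 depot comparisons share libraries and are not independent of each other.

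In order of mean level, miR-22a-3p was highest in SAT, then VAT, then IMAT, and of these neighbours SAT and VAT did not differ beyond their spread. VAT and IMAT differed in the share of all counts and in the TMM-scaled fit, but not in the share of counts without muscle miRNAs. The TMM-scaled fit with muscle miRNAs left out still passed (-1.15). The call of the main fit held in 11 of 24 alternatives. For miR-22b-5p the TMM-scaled order was IMAT, SAT, VAT, and no pair of neighbouring depots passed on the TMM scale.

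**Figure D4:**
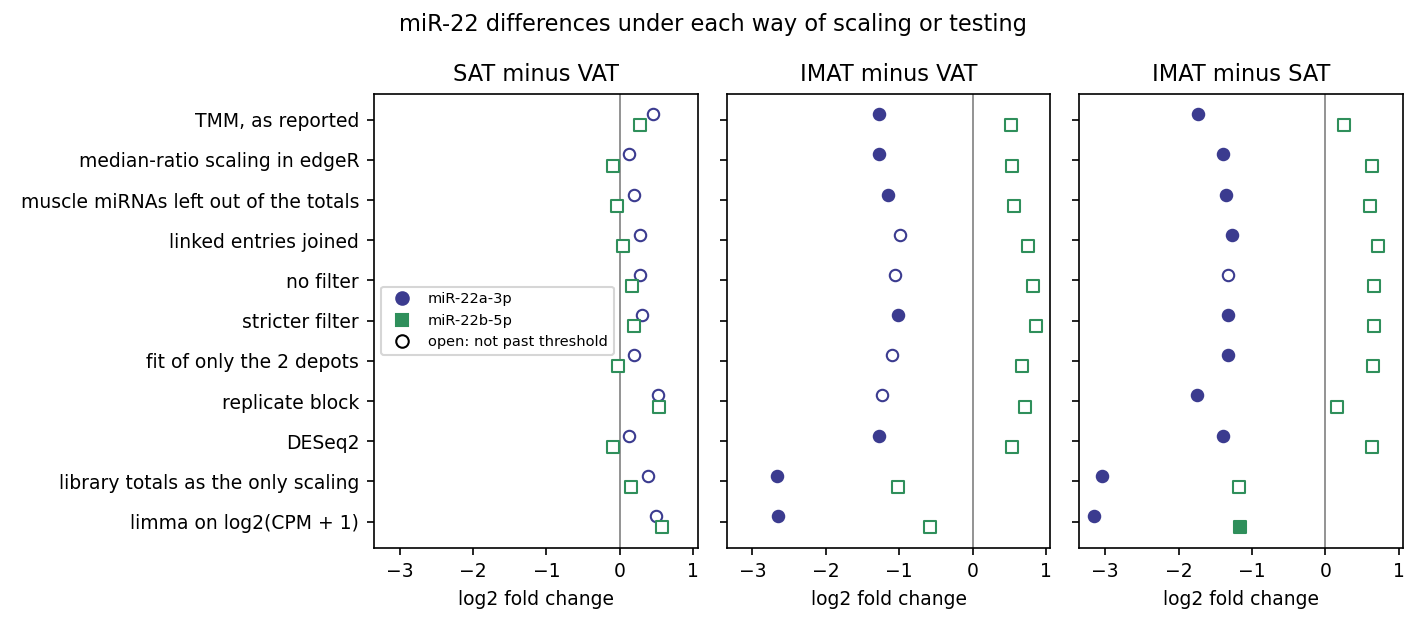
Log2 fold changes of both miR-22 forms in the 3 depot comparisons (panels) under each way of scaling, filtering or testing (rows). Circles are miR-22a-3p and squares miR-22b-5p, filled where the adjusted p was under 0.05. miR-22a-3p lies at -1.27 to -3.15 in IMAT minus SAT. In both panels with IMAT, miR-22b-5p changes side with library totals and in limma on log2 values. In SAT minus VAT it changes side with median-ratio scaling, in DESeq2, with muscle miRNAs left out and in the fit of only the depots compared.

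The miRNAs whose counts stayed in the most constant ratio to miR-22a-3p were sought among the named entries above 0 in every library, with one entry kept of each set with the same reads. The measure was the SD of the log2 ratio of counts over the 14 libraries, into which no scaling enters. It was smallest for miR-27c-3p (0.44), a relative of miR-27b, which restrains fat cell formation in mice. There followed miR-205a-3p (0.46), of an epithelial family, let-7a-5p (0.50) and let-7j-5p (0.55) of the let-7 family, miR-30a-5p (0.61), of a family that favours fat cell formation in human cells, and miR-130a-5p (0.62). miR-27c-3p held 0.0127 to 0.0339 counts for each count of miR-22a-3p, miR-30a-5p held 0.0565 to 0.217 and let-7a-5p, the most abundant of the 6, held 0.422 to 1.42.

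Once each depot's mean was taken off, the smallest SDs were again those of miR-27c-3p (0.28) and let-7a-5p (0.36), followed by miR-30e-5p and miR-458-3p (0.39 each), miR-99-5p (0.41) and let-7j-5p (0.43). miR-99-5p kept its ratio to miR-22a-3p within depots but not between them, since over all libraries its SD was 1.48. miR-22b-5p was not among the nearest: 54.8% of the named entries compared were nearer over all libraries (SD 1.18 for miR-22b-5p) and 33.9% within depots (0.69). The points share libraries, so the SD is a description of these 14 libraries, and low-count entries such as miR-205a-3p and let-7j-5p add counting error to it.

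**Figure D5:**
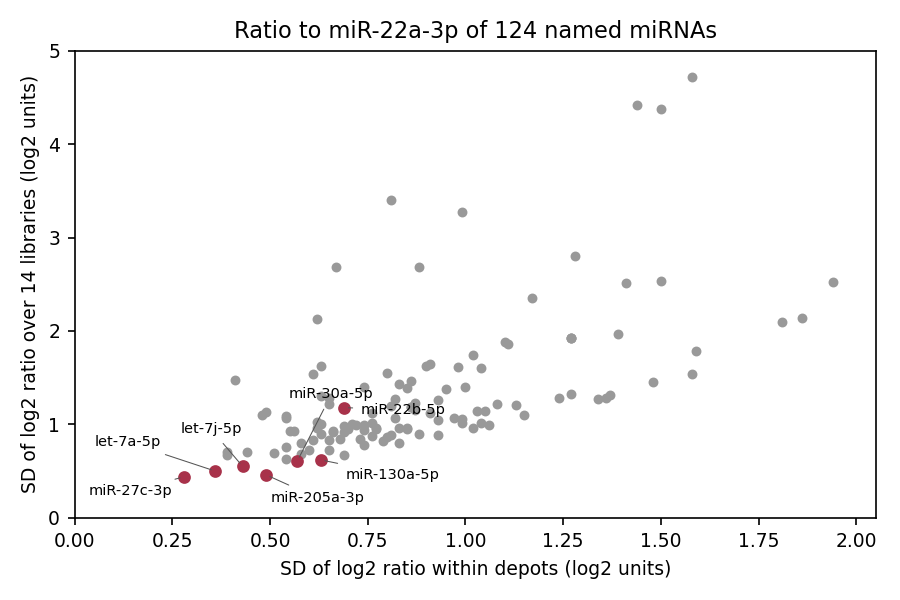
SD of the log2 ratio to miR-22a-3p within depots (x axis) and over all 14 libraries (y axis), both in log2 units, for the named miRNAs above 0 in every library. Each point is a miRNA; the 6 with the smallest SD over all libraries and miR-22b-5p are named, and miR-27c-3p lies lowest on both axes, at 0.28 and 0.44.

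The wider group of miRNAs of lipid and insulin metabolism was listed by number. The numbers were miR-27, miR-29, miR-30, miR-33, miR-34, miR-103, miR-107, miR-122, miR-143, miR-148, miR-370, miR-375 and miR-378. Of these, miR-34, miR-370 and miR-378 had no entry. The others had 35 entries, of which 32 were tested. In SAT minus VAT 2 of the 32 passed (6.25%, against 12.5% of all entries), with a median log2 fold change of -0.20 against -0.05 over all entries. miR-27b-3p was higher in SAT (2.03 ± 0.37, edgeR adjusted p = 0.0025), and miR-122-5p, made in liver and tied there to cholesterol synthesis, was lower (-4.22 ± 0.65, adjusted p = 0.0013). Some markers of other organs were also lower in SAT. The epithelia and skin list went the other way, with 4 of 12 entries called higher in SAT than in VAT and 0 lower (24 of 327 higher over all entries). The gut and liver list, which holds miR-122-5p itself (mean 0.0349% in VAT), took 0.0493 to 0.0697% of counts in VAT, 0.00785 to 0.0165% in SAT and 0.00244 to 0.00799% in IMAT. Of its 3 tested entries, miR-122-5p among them, 2 were lower in SAT than in VAT and 3 in IMAT. Over all entries, 17 and 19 of 327 were called lower. The pancreas list took 0.0547 to 0.0606%, 0.00921 to 0.0208% and 0.00384 to 0.0195%, with 3 of 6 entries lower in SAT than in VAT and none called in IMAT minus VAT. Its miR-375 entries, also members of the lipid and insulin group, carried the same reads and none of them was called. Without muscle miRNAs the gut and liver list and the pancreas list overlapped between IMAT and VAT. Gut and liver then took 0.0104 to 0.0522% in IMAT and 0.0517 to 0.0698% in VAT, pancreas 0.0281 to 0.0675% and 0.0549 to 0.0636%. Their part in the miR-122-5p values was not tested. In IMAT minus VAT 4 of 32 passed (12.5%, against 13.5%), 1 higher (miR-27b-3p) and 3 lower (miR-122-5p, miR-27c-3p and miR-29b-2-3p), with a median of -0.54 against -0.60. This count was 1, with none lower, without IMAT 1, without IMAT 2, without a filter and in the fit of 2 depots. It was 2 without IMAT 4 or with the replicate number as a block, and 6 without VAT 4. In IMAT minus SAT 1 of 32 passed (3.12%, against 6.73%), with a median of -0.38 against -0.43. It was miR-29b-2-3p, lower in IMAT (-1.43 ± 0.40, adjusted p = 0.048), which kept its call in 6 of 24 alternatives. miR-27b-3p in IMAT minus VAT had 1.65 ± 0.36 (adjusted p = 0.0063 in edgeR), miR-122-5p -2.67 ± 0.61 (0.0087) and miR-27c-3p -1.22 ± 0.33 (0.022). With library totals 15 of the 32 were called in IMAT minus VAT (46.9%, against 49.5% of all entries) and 14 in IMAT minus SAT (43.8%, against 40.1%), all of them lower in IMAT. Some of the 32 carry the same reads, and with such entries joined 24 were tested. Then 2 passed in SAT minus VAT (8.33%, against 15.5% of all entries) and 4 in IMAT minus VAT (16.7%, against 14%). In IMAT minus SAT 1 passed (4.17%, against 10.1%), and it was higher in IMAT. With TMM and with library totals the shares that passed were near or under those of all entries.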

How the data were processed

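Small RNA of mature adipocytes was counted in 14 libraries, each placed in a depot by its title. The deposited table holds raw counts per miRNA entry, not scaled by the authors, and values deposited under a TPM header, which equal CPM (count over the library's summed counts without the first entry, within 0.0051) and hold no length term. A further deposited column gives the mature length in nt, per the file headers. Of the per-sample columns 2 matched no sample and were not used. The submitters' processing notes list Trimmomatic 0.30 and edgeR 3.4.6, with no step attached to either. For aligner, miRNA caller and genome build, nothing is given in the sources used here.

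The members and lists were chosen with earlier results of these data known. Entries had to be above 0 in 4 or more libraries, and their counts went into edgeR 4.0.16 (quasi-likelihood, TMM, library totals over all entries, all 14 libraries in 1 fit, no block; R 4.3.3), two-sided, adjusted by Benjamini-Hochberg over all entries tested, threshold 0.05. The SE is the log2 fold change over the root of the F statistic. The edgeR step was tested on simulated data. No muscle share like that of IMAT was built into them, so they cannot show how the calls depend on scaling. Shares and the ratio of the forms (pseudocount 0.5) were compared on the log2 scale by exact permutation tests (SciPy 1.17.1), adjusted over the 3 comparisons. Entries count as having the same reads when both are above 0 in at least 4 libraries, reach 20 reads in 1 of these and differ in each by no more than 2 reads or 10%; a joined set takes its highest count. The named miRNAs are both forms, the 6 nearest in ratio, the list entries that passed and the 5 most abundant. Alternatives were other scalings, filters and tests (DESeq2 1.42.0, limma 3.58.1), the replicate number as a block and each library left out.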

Additional observations from a re-analysis of the deposited data

Results flagged for a closer look

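Among 15 sets of depot values examined (miR-22a-3p and miR-22b-5p with and without muscle miRNAs, and their ratio), 5 held a library far from the others of its depot. The measure was the Dixon ratio, with critical values of 0.829 in VAT and 0.71 in SAT. For independent sets of normal values about 1 in 20 would pass by chance. These sets share reads and were not tested for normality, so 5 of 15 cannot be set against that rate. VAT 4 held 161 CPM of miR-22b-5p, the next VAT library 37.3, and without muscle miRNAs it held 161.1 against 39.2. SAT 1 held 100.9 CPM against 63.8 in the next SAT library, and 110.3 against 72.4 without muscle miRNAs. The ratio of miR-22b-5p to miR-22a-3p was also highest in SAT 1 within its depot, at 1.317 per 1000 against 0.732. No miR-22a-3p value was set apart in this way. The cause was not tested.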

How the results depend on the processing

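The lower level of miR-22a-3p in IMAT than in SAT kept its sign in all 24 alternatives (-1.86 to -1.23 with 1 library left out), its call in 21. It lost the call without a filter (-1.33, edgeR adjusted p = 0.11). Against VAT the sign also held in all 24 (-1.59 to -0.88 with 1 library left out), and the call in 11. It was lost without a filter (-1.05, adjusted p = 0.18), with linked entries joined (-0.99, 0.053) and in the fit of 2 depots (-1.10, 0.19). Less the median of all entries, it was -1.57 to -1.20 in IMAT minus SAT and -1.15 to 0.32 in IMAT minus VAT (above 0 only without a filter). With library totals these medians were -1.98 (IMAT minus VAT) and -1.81 (IMAT minus SAT).

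As a share of all counts miR-22a-3p ran from -2.99 to -2.41 in IMAT minus VAT with 1 library left out. Without any one VAT library the adjusted p was 0.054 (exact permutation p = 0.036, the smallest for 3 against 5). The share without muscle miRNAs and with linked entries joined (added after the data were seen) was -0.18 and -0.19 without joining. The ratio of the forms ran from 1.71 to 2.46 in IMAT minus VAT, with the same limit, and from -0.26 to 0.49 in SAT minus VAT.

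The level of miR-22b-5p in SAT minus VAT was -0.09 with median-ratio scaling and in DESeq2, -0.04 without muscle miRNAs, -0.03 in the fit of 2 depots, and -0.04 to 0.99 with 1 library left out. In IMAT minus VAT it was -1.02 with library totals and -0.58 in limma, and 0.23 to 1.69 with 1 library left out. In IMAT minus SAT it was -1.18 with library totals and -1.16 in limma (adjusted p = 0.045). Its share tests were added after the data were seen. In IMAT minus VAT the share was -0.59 of all counts, 0.34 with linked entries joined, 1.87 without muscle miRNAs and 1.88 with both, and -0.85 to 0.02 with 1 library left out. In IMAT minus SAT it was -0.31 with linked entries joined (call lost), 1.17 without muscle miRNAs and 1.19 with both.

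Of 13 pairs by title number, 4 correlated over 0.1, and 1 of 14 libraries was closest to its own number. So few libraries cannot decide pairing. The replicate block gave miR-22a-3p -1.23 in IMAT minus VAT (adjusted p = 0.14) and changed no other call of a miR-22 form. It moved all calls from 41 to 27 in SAT minus VAT and from 44 to 28 in IMAT minus VAT.

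In SAT minus VAT the 41 became 63 in DESeq2, 17 without a filter, and 26 or 27 without VAT 1, VAT 5, SAT 2 or SAT 3. Of the 41, 24 were higher, against 14 of 39 with median-ratio scaling; in IMAT minus SAT it was 12 of 22 against 16 of 23. In IMAT minus VAT the 44 (25 higher) became 162 (18 higher) with library totals, 176 (16 higher) in limma, 86 in DESeq2, 26 without a filter, 27 in the fit of 2 depots, and 68 without VAT 4 or IMAT 5. In IMAT minus SAT the 22 (12 higher) became 131 (7 higher) with library totals, 173 in limma, 47 in DESeq2, 11 without a filter, 38 in the fit of 2 depots, 47 without VAT 4 and 37 without IMAT 5. Depth limits miR-22b-5p (33 reads in IMAT 4).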
